A study of Mus musculus with 6 samples.

Results

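Etv4 is an ETS transcription factor that the study lists among its candidate targets of SOX4 and SOX11, and it was described here together with 9 genes that the ERK pathway induces or that restrain it. The 10 genes were selected by name for their known place in that pathway: the transcription factors Etv4, Etv5, Fosl1 and Egr1, the phosphatases Dusp4, Dusp5 and Dusp6, and the inhibitors Spry2, Spry4 and Spred1. The selection was made with earlier results of these data known. All 10 had a probe, of 21368 genes named on the arrays, and they took 13 of the 55681 probes. Etv4 had been put on the target list partly for its drop in the double knockout of these same arrays. There the study focused on genes changed in the double knockout alone, so the single knockouts entered the choice as well. The Etv4 values of every genotype are therefore given as a description with no test. The question was whether Etv4 fell alone or with the other genes.

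The data were 6 two-colour arrays of RNA from primary mouse keratinocytes, the epithelial cells of the epidermis, with 2 biological replicates of each genotype. Sox4cKO cells lacked Sox4, Sox11cKO cells lacked Sox11 and dcKO cells lacked both, and each array held RNA of 1 knockout in one dye and of wild-type keratinocytes in the other. The floxed alleles (Sox4 fl/fl, Sox11 fl/fl) were deleted by Krt14-Cre, which acts in keratinocytes. The floxed line was of mixed 129SvEx:C57BL/6 strain, which the labels give for both channels, and also carried a Sox12 deletion, while the Krt14-Cre line to which it was crossed was FVB/N. All cells, the wild type included, came from newborn pups and were grown 3 passages on J2 mouse fibroblast feeders and at least 2 passages off them. The Sox12 genotype of these cells, and whether the wild-type cells carried floxed alleles or Cre, are not given in the sources used here. The knockout RNA was in Cy5 on every replicate 1 array and in Cy3 on every replicate 2 array, so dye and replicate number cannot be told apart.

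In ERK signalling, a growth factor such as an EGF or FGF family ligand binds a receptor tyrosine kinase, and RAS, RAF and MEK kinases pass the signal to ERK, which enters the nucleus and changes transcription. Egr1 and the AP-1 member Fosl1 are among the genes it turns on, and Etv4 and Etv5, of the PEA3 group of ETS factors, are common readouts of growth factor signalling in epithelia. The same signal induces its own brakes: the DUSP phosphatases remove the activating phosphates from ERK, and Sprouty and Spred proteins act upstream on the way to RAF.

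The targeted genes behaved as labelled. The log2 ratio of Sox4, knockout over wild type, was −2.52 ± 0.16 (SE, n = 2) in Sox4cKO and −2.52 ± 0.16 in dcKO, against −0.15 ± 0.16 in Sox11cKO. That of Sox11 was −2.98 ± 0.35 in Sox11cKO and −3.43 ± 0.35 in dcKO, against −0.07 ± 0.35 in Sox4cKO. All 8 keratinocyte markers lay above background on all 6 arrays in the wild-type channel. None of the 9 markers of feeder fibroblasts did, and Col1a1 and Col3a1 were at background in every channel. Col1a2 came close. It lay above background in every knockout channel and in every wild-type channel but 1, on a Sox4cKO array, at log2 wild-type signals of 5.45 to 6.16. Of the melanocyte and immune markers, 2 of 6 (Mitf and Mlana) and 2 of 7 (Cd68 and Cd3e) lay above background in wild type on all 6 arrays. Pmel and Tyr each missed this in 1 channel, and Dct, Tyrp1, Aif1 and Lyz2 were at background in every channel. The log2 wild-type signals of Mitf and Cd68 were highest on Sox11cKO replicate 2, at 9.91 and 9.92, against at most 8.23 and 7.65 on the other arrays. None of these other-cell markers passed the test in dcKO or Sox11cKO, and in Sox4cKO only the fibroblast marker Vim did, at −2.27 ± 0.25 (adjusted p = 0.0341). The log2 wild-type signal of Vim was 8.44 and 8.16 on the Sox4cKO arrays and 4.98 to 5.41 on the other arrays. The Sox4cKO signals of Vim, 6.81 and 5.25, did not lie below the latter range. The drop was thus taken against a wild type that was high on these arrays alone. The part of Vim in the Sox4cKO results was not tested. In cultures, fewer cells of a type and less RNA per cell cannot be told apart. No spot was saturated, and between 35.1% and 45% of probes lay above background in a channel.

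In dcKO keratinocytes Etv4 did not fall alone. Etv5, Dusp6 and Fosl1 fell past both thresholds of the study, an adjusted p below 0.05 and a log2 fold change beyond 1.5, and Dusp5 fell by the adjusted p alone. Of the 9 members other than Etv4, 3 were thus called lower by both thresholds, where 0.444% of all probes were, and 4 by the adjusted p alone, where 1.17% were. Among the 22119 probes above background in wild type on both dcKO arrays the shares were 1.11% and 2.92%. The members were chosen with earlier results of these data known, so these shares give scale and are no test of the counts. No member was higher by either threshold. Without dcKO replicate 1 the call of 1 member, Etv5, held by both thresholds, and without replicate 2 that of Dusp6. Counting signs alone, 7 of these 9 lay below wild type on both dcKO arrays, as did 27.8% of all probes. Across all probes, 247 were called lower and 174 higher in dcKO, and 599 and 121 when the arrays were centred on their median in place of the loess curve.

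**Figure D1:**
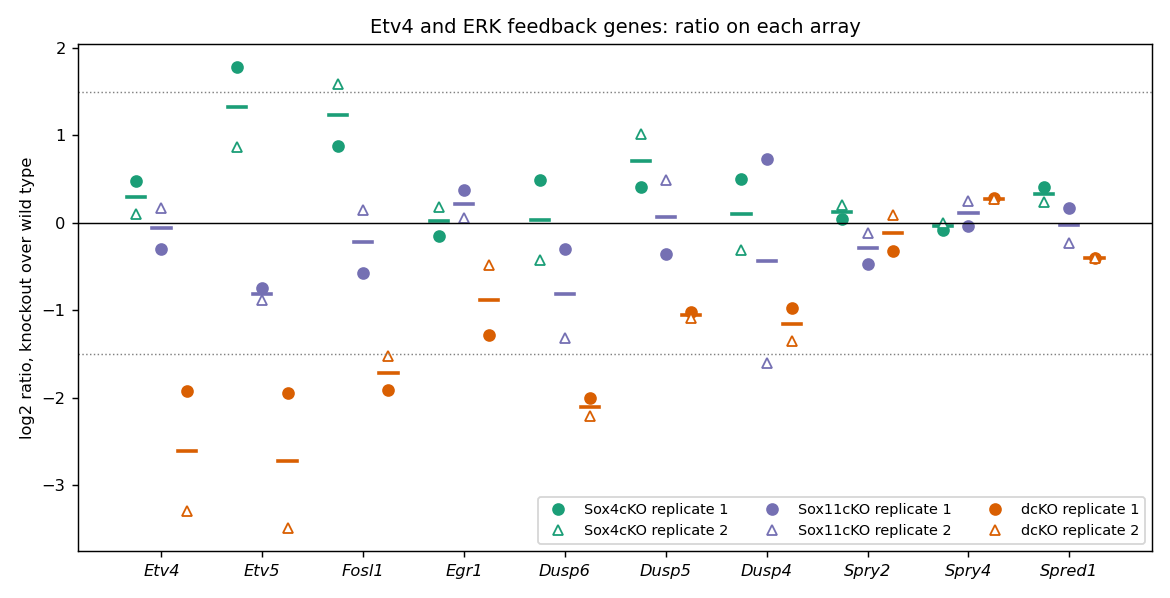
Log2 ratio of knockout over wild type (vertical axis) for each of the 10 genes on each array, with circles for replicate 1, triangles for replicate 2 and bars for the mean; dotted lines mark a log2 fold change of 1.5 either way. Both dcKO arrays lay below −1.5 for Etv4, Etv5, Dusp6 and Fosl1, while the Sox4cKO arrays of Etv5 and Fosl1 lay above 0.

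Of the 10 genes, the PEA3 factors showed the largest drops in dcKO. The log2 ratio of Etv4 in dcKO was −1.93 in replicate 1 and −3.30 in replicate 2, a mean of −2.61, or 6.11-fold lower than wild type. Its second probe gave −1.56 and −2.95. In the single knockouts the same gene stayed near its wild-type level, with 0.48 and 0.10 in Sox4cKO and −0.30 and 0.17 in Sox11cKO. The means were 0.29 ± 0.28 and −0.07 ± 0.28. They are a description with no test, since the study focused on genes that changed in the double knockout alone. The direction of the Sox11cKO mean was not stable, since it was 0.01 with median centring and 0.60 without replicate 1. The dcKO ratios thus did not overlap those of either single knockout. As a description, the log2 fold change in dcKO minus that in Sox4cKO was −2.90, and minus that in Sox11cKO −2.55.

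Etv5, the close relative of Etv4, had dcKO ratios of −1.95 and −3.49, so that replicate 2 was the lower one for both genes. The mean was −2.72 ± 0.23 (SE, n = 2, adjusted p = 0.00316), 6.60-fold lower than wild type. Without dcKO replicate 2 the value was −2.22 with an adjusted p of 0.077. Unlike those of Etv4, the Etv5 ratios of the single knockouts lay on opposite sides of wild type on every array. They were 1.78 and 0.87 in Sox4cKO, a mean of 1.33 ± 0.23 (adjusted p = 0.146), and −0.75 and −0.88 in Sox11cKO, a mean of −0.81 ± 0.23 (adjusted p = 0.431). The size of the latter was not stable, at −0.26 without Sox11cKO replicate 1 (adjusted p = 0.848) and −1.36 without replicate 2 (adjusted p = 0.0902). Neither passed the test over all probes, while the Sox4cKO value passed when a Sox11cKO array was left out (adjusted p = 0.00374) or when only the Sox4cKO arrays were fitted (adjusted p = 0.0111). The difference between the single knockouts, a comparison added after the values had been seen, was 2.14 ± 0.33 (adjusted p = 0.16). None of the 9 members other than Etv4 passed in that comparison, where 0.0108% of all probes passed by the adjusted p in either direction. The unadjusted p of limma was below 0.05 for Etv5, Dusp5, Dusp6 and Fosl1. Unadjusted p-values are given, here and below, without the share of all probes that reached them. They do not show that the members stood out.

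Fosl1 encodes FRA1, a partner of JUN proteins in AP-1. Its dcKO ratios were −1.91 and −1.53, a mean of −1.72 ± 0.15 (adjusted p = 0.00347), 3.30-fold lower than wild type. Leaving out either dcKO array kept the size but lost the call, at −1.89 without replicate 1 (adjusted p = 0.0594) and −1.55 without replicate 2 (adjusted p = 0.0941). In Sox4cKO it moved the other way on both arrays, 0.88 and 1.59, and it was the member that rose by the adjusted p there (1.24 ± 0.15, adjusted p = 0.0422). That rise stayed under the fold threshold, and it did not pass in 8 of its 15 other fits, among them those without either Sox4cKO array (adjusted p = 0.378 and 0.753). In Sox11cKO the ratios of −0.58 and 0.14 straddled 0.

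Egr1, a zinc finger factor of the immediate early response, was lower on both dcKO arrays, at −1.28 and −0.48, but the mean of −0.88 ± 0.20 did not pass (adjusted p = 0.0887). It passed in the authors' table (adjusted p = 0.0394) and with median centring (adjusted p = 0.0187). Under these settings 2.26% and 9.06% of all probes fell in dcKO by the adjusted p, against 1.17% in the reported fit. The Egr1 value was −0.48 without dcKO replicate 1 and −1.28 without replicate 2. The single-knockout ratios of Egr1 lay between −0.15 and 0.37. No single-knockout value reached the dcKO range.

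The 3 phosphatases were all lower on both dcKO arrays. Dusp6, the phosphatase that acts on ERK in the cytoplasm, had the ratios −2.01 and −2.21, which differed less between replicates than those of Etv4 and Etv5. The mean of Dusp6 was −2.11 ± 0.18 (adjusted p = 0.00336), 4.32-fold lower than wild type, and without dcKO replicate 1 it was −1.73 (adjusted p = 0.0788). In Sox4cKO its ratios were 0.49 and −0.43, and in Sox11cKO they were −0.30 and −1.32, a mean of −0.81 ± 0.18 (adjusted p = 0.258). Dusp5, which acts on ERK in the nucleus, had dcKO ratios of −1.02 and −1.09, a mean of −1.05 ± 0.19 (adjusted p = 0.0398), 2.08-fold lower. This drop was under the fold threshold and was lost without any 1 array of Sox4cKO (adjusted p = 0.0727) or of dcKO (adjusted p = 0.128 and 0.457), and without the dye term (adjusted p = 0.108). The Dusp5 probe was dim, above background in the wild-type channel on 4 of 6 arrays. Dusp4, another nuclear phosphatase, had dcKO ratios of −0.97 and −1.35 and a mean of −1.16 ± 0.30 (adjusted p = 0.126), with the knockout channel above background on 1 of the 2 arrays. Its Sox11cKO ratios of 0.73 and −1.61 were the widest apart of any member, and when either Sox11cKO array was left out the dcKO value of −1.16 passed (adjusted p = 0.00197). The dcKO value was −0.57 without dcKO replicate 1 (adjusted p = 0.766) and −1.75 without replicate 2 (adjusted p = 0.263).

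The Sprouty and Spred genes gave little. Spry4 was below background in both channels of every array, and Spry2 lay above it in the wild-type channel of 2 arrays and in no knockout channel, so no change could be measured for either. Spred1 was lower by 0.40 on both dcKO arrays (log2 ratio −0.40 ± 0.15, adjusted p = 0.301), and its second-brightest probe gave −0.40 ± 0.14. The third, above background in only part of the channels, gave 0.15 ± 0.17. Spred1 passed in dcKO with median centring alone (adjusted p = 0.021), where 9.06% of all probes fell by the adjusted p. Its single-knockout means were 0.33 ± 0.15 and −0.03 ± 0.15.

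In the single knockouts no member was called by both thresholds. Etv4 is left out of the counts, since the study focused on genes changed in the double knockout alone. In Sox4cKO the count was 0 of the 9 other members by limma, where 0.14% of all probes were called. Etv5, Dusp5 and Fosl1 had an unadjusted p below 0.05 in Sox4cKO, for which, as for Sox11cKO, no share of all probes is given. The 1 member past the adjusted p alone was Fosl1, where 0.0557% of all probes passed upward. In Sox11cKO the count was also 0 of these 9 by limma, by both thresholds and by the adjusted p alone, where 0.124% of all probes passed in either direction. There Etv5 and Dusp6 had an unadjusted p below 0.05. Without Sox11cKO replicate 1 Dusp4 passed the adjusted p in Sox11cKO, at −1.31 (adjusted p = 0.0258), and without replicate 2 it was 0.44. Over the members other than Etv4 that lay above background, the median log2 fold change was 0.33 in Sox4cKO, −0.26 in Sox11cKO and −1.11 in dcKO, from 7, 8 and 8 genes. Over all probes above background these medians were 0.002, −0.002 and −0.028.

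The contrasts between genotypes asked whether dcKO differed from each single knockout, and they were tested for the members other than Etv4. All of them rest on the same 2 dcKO arrays. Against Sox4cKO, 4 of the 9 were lower in dcKO by both thresholds, where 0.311% of all probes were. The difference was −4.05 ± 0.33 for Etv5 (adjusted p = 0.00595), −2.96 ± 0.21 for Fosl1 (adjusted p = 0.00537), −2.14 ± 0.26 for Dusp6 (adjusted p = 0.0234) and −1.76 ± 0.27 for Dusp5 (adjusted p = 0.0421). Without either Sox4cKO array none of these passed, and without dcKO replicate 1 Etv5 and Fosl1 did. Against Sox11cKO, only Fosl1 passed the adjusted p (−1.5 ± 0.21, adjusted p = 0.0402), with a size that fell just short of the fold threshold, where 0.21% of all probes were lower by the adjusted p. It did not pass in 9 of its 14 other fits. By both thresholds the count was 0 of 9 by limma, with 5 at an unadjusted p below 0.05, and without Sox11cKO replicate 1 it was 2 and without replicate 2 it was 1. Etv5 followed at −1.91 ± 0.33 (adjusted p = 0.0663) and Dusp6 at −1.30 ± 0.26 (adjusted p = 0.0988), and both passed with median centring (adjusted p = 0.0128 and 0.0333) and in the authors' table (adjusted p = 0.0273 and 0.0425).

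Taking the sum of both single-knockout effects from the dcKO effect gave the departure from additivity. It was −3.24 ± 0.40 for Etv5 (adjusted p = 0.0334) and −2.74 ± 0.26 for Fosl1 (adjusted p = 0.0173), so 2 of the 9 fell below additivity by both thresholds, where 0.144% of all probes did. Neither passed without any 1 Sox4cKO or dcKO array, nor without the dye term (adjusted p = 0.165 and 0.0936). Without Sox11cKO replicate 1 the count was 3, with Dusp5 added. For Dusp6 it was −1.33 ± 0.32 (adjusted p = 0.155) and for Dusp5 −1.83 ± 0.32 (adjusted p = 0.0828). As a description, it was −2.84 for Etv4.

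**Figure D2:**
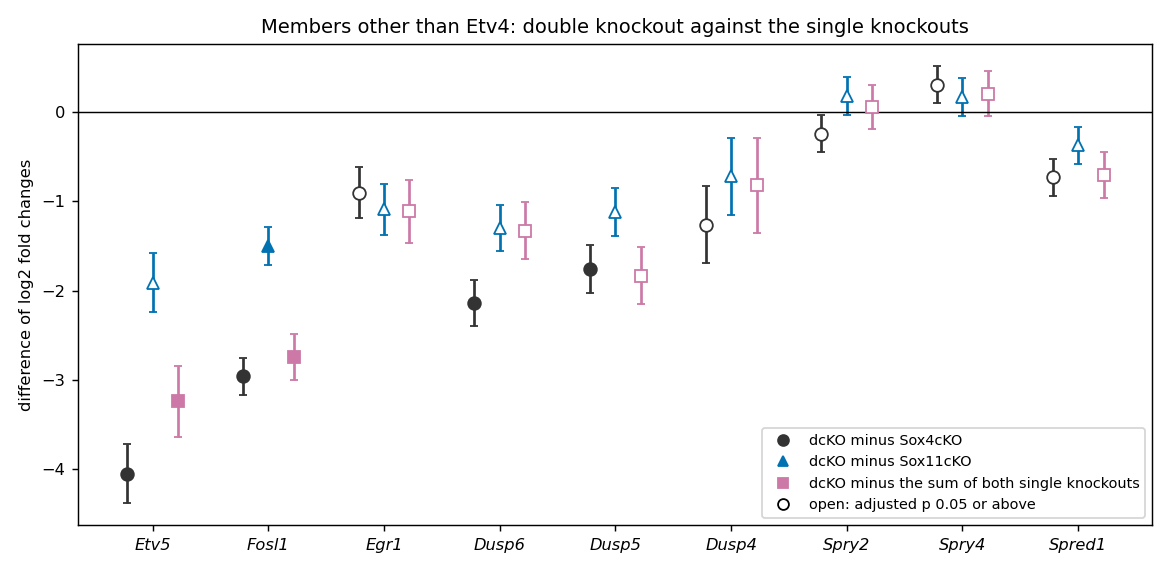
Difference of log2 fold changes (vertical axis, with bars of 1 standard error of the fit) between dcKO and Sox4cKO, dcKO and Sox11cKO, and dcKO and the sum of both, for the 9 genes other than Etv4; filled symbols have an adjusted p below 0.05. Etv5 and Fosl1 lay farthest below 0 against Sox4cKO, at −4.05 and −2.96, and Spry2 and Spry4, at background, near 0.

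Each ratio sets a knockout channel against the wild-type channel of its own array, and the wild-type levels were not the same on all arrays. The levels given here are log2 signals of a channel after scaling across arrays, and are compared within a probe. For Etv4 the wild-type level was 10.97 and 11.60 on the Sox4cKO arrays, 12.70 and 10.89 on the Sox11cKO arrays and 12.51 and 11.99 on the dcKO arrays. The 2 dcKO levels, 10.58 and 8.70, lay below all 6 wild-type levels. The same held for Dusp6, where wild type ranged from 10.40 to 12.23 and dcKO stood at 10.11 and 9.55, and for Dusp4. For Etv5, wild type ranged from 8.73 to 10.72, and dcKO was 8.77 and 6.96, so that 1 of the 2 lay below all wild-type levels. For Dusp6, Dusp4 and Etv5 such low levels were not particular to dcKO. On Sox11cKO replicate 2 their knockout levels were 9.91, 6.28 and 7.85, each below all wild-type levels of its gene. No single-knockout level of Etv4 lay below its wild-type levels, the lowest being 11.06.

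Fosl1 was different. Its wild-type level ranged over 3.58 on the log2 scale, from 6.32 on Sox11cKO replicate 2 to 9.90 on dcKO replicate 2. The wild-type channels of the dcKO arrays averaged 9.85, which was 1.73 above the mean of the other 4 wild-type channels, and dcKO itself, at 7.90 and 8.37, averaged 0.01 above that mean. The other 4 did not agree among themselves, since the wild type on Sox11cKO replicate 1 stood at 9.84, as high as on the dcKO arrays, and without Sox11cKO replicate 2 the offsets were 1.14 and −0.58. For Dusp5 the wild-type channels of the dcKO arrays were higher by 1.20 and dcKO by 0.14, and for Spred1 by 0.81 and 0.41. For Etv4 the wild-type channels of the dcKO arrays were higher by 0.71 while dcKO was lower by 1.90, for Etv5 these were 1.08 and −1.64, for Dusp6 0.48 and −1.64, and for Egr1 −0.31 and −1.19. For Fosl1, Dusp5 and Spred1 the mean of the dcKO-array wild type was thus farther from the mean of the other 4 wild-type channels than dcKO was, also when any 1 of the 4 was left out, and for Etv4, Etv5, Dusp6, Dusp4 and Egr1 dcKO was the farther one. Of the 650 probes that fell in dcKO by the adjusted p, the wild-type mean was the farther one for 37.7%. What moved the wild-type channels was not tested.

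**Figure D3:**
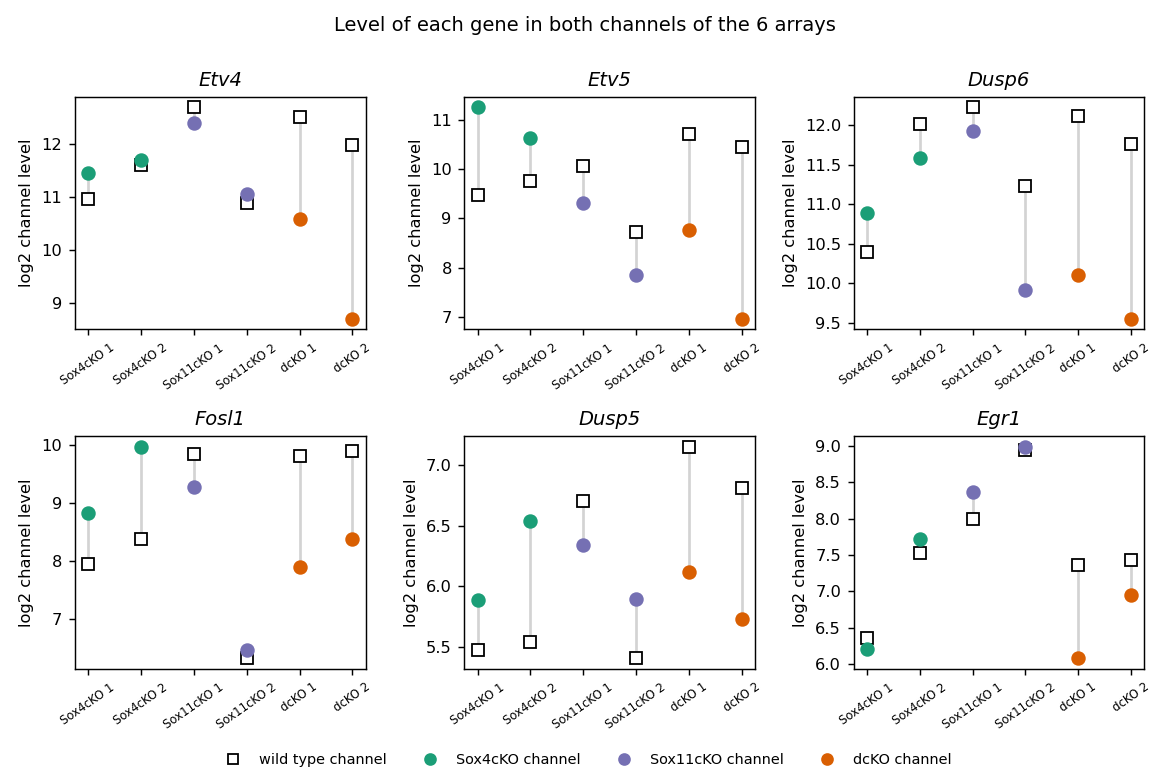
Log2 channel level (vertical axis) of 6 genes in the wild-type channel (open squares) and the knockout channel (filled circles) of each array (horizontal axis). The dcKO levels of Etv4 and Dusp6 lay below every wild-type level, while those of Fosl1, 7.90 and 8.37, lay within the wild-type range of 6.32 to 9.90. The Sox11cKO replicate 2 levels of Dusp6 and Etv5, 9.91 and 7.85, also lay below every wild-type level. So did the Sox4cKO replicate 1 level of Egr1, 6.21.

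The rest of the pathway was read from lists of genes by name. They too were chosen with earlier results of these data known, so the counts in them are a description. For scale, 1.17% of all probes fell in dcKO by the adjusted p and 0.444% by both thresholds. Among probes above background in wild type on both dcKO arrays these shares were 2.92% and 1.11%. Among 10 ligands, 2 fell in dcKO by the adjusted p, and both belong to the EGF family. Areg, amphiregulin, had ratios of −1.61 and −2.62, a mean of −2.12 ± 0.24 (adjusted p = 0.00939), and Hbegf, the heparin-binding EGF-like growth factor, −1.34 and −1.45, a mean of −1.40 ± 0.17 (adjusted p = 0.0117). In Sox4cKO Areg was 1.74 ± 0.24 (adjusted p = 0.0607). The dcKO levels of both ligands lay within the range of the wild-type channels, at 8.28 and 7.28 for Areg, where wild type ranged from 6.83 to 9.90, and at 9.95 and 10.05 for Hbegf, where it ranged from 8.97 to 11.50. On the dcKO arrays wild type averaged 2.13 and 1.35 above the mean of the other 4 wild-type channels, but for Areg the wild type on Sox11cKO replicate 1, at 9.89, was as high as on dcKO replicate 1. None of 8 receptors passed in any genotype, with Egfr at −0.57 (adjusted p = 0.115) and Met at −1.0 (adjusted p = 0.0526) in dcKO. The relay from adaptors to ERK and its substrate kinases held 22 genes. Leaving out Rasgrp1, an activator of RAS, none of them passed in any genotype. The study lists Rasgrp1 among genes that it chose partly on these arrays, so its dcKO values are a description with no test: the log2 ratios were 3.41 and 2.41, a mean of 2.91, with the wild-type channel above background on 1 of the 2 arrays.

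Of 20 other ERK-induced genes, 8 fell in dcKO by the adjusted p, where 1.17% of all probes did, and none rose. Of the 8, 3 were past both thresholds, where 0.444% of all probes were. The 3 were Epha2, an ephrin receptor (−1.70 ± 0.17, adjusted p = 0.00622), Phlda1 (−1.54 ± 0.19, adjusted p = 0.0115) and Maff, a small MAF factor (−1.52 ± 0.16, adjusted p = 0.00759). The other 5 were Ccnd1, which encodes cyclin D1 (−1.26), Ier3 (−1.25), Atf3 (−1.25), Trib1 (−1.04) and Nr4a1, an orphan nuclear receptor (−0.97), with adjusted p between 0.0117 and 0.0274. The list's median was −0.74 in dcKO, 0.34 in Sox4cKO and −0.10 in Sox11cKO. Not every early gene was lower: Fos was at 0.64 (adjusted p = 0.383), Myc at −0.08 (adjusted p = 0.946) and Junb at −0.13 (adjusted p = 0.931). Egr2 and Egr3 were at background throughout.

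Among 15 other feedback inhibitors, 3 fell in dcKO by the adjusted p, where 1.17% of all probes did. Of the 3, 1 was past both thresholds, where 0.444% of all probes were. The 3 were Dusp10 (−1.63 ± 0.26, adjusted p = 0.0278), Dusp9 (−1.12 ± 0.19, adjusted p = 0.0363) and Spry1. Dusp10 and Dusp9 encode phosphatases that act on MAP kinases, and DUSP10 acts mainly on p38 and JNK. Spry1 was not above background in the knockout channel of either dcKO array. Its ratios were −0.67 and −1.83, with log2 wild-type signals of 5.83 and 7.33. The fit gave −1.25 ± 0.17 (adjusted p = 0.0169), and as a lower bound the drop was 2.15-fold. Of the 13 list genes that fell in dcKO, 5 had a dcKO-array wild type farther from the mean of the other 4 wild-type channels than dcKO was, or 38.5% against the 37.7% of probes. Besides the 2 ligands these were Ccnd1, with offsets of 1.41 for wild type and 0.15 for dcKO, Spry1, with 0.85 and −0.39, and Dusp9, with 0.65 and −0.46. For Dusp9 the order turned when any 1 of 3 of those channels was left out. Other genes turned the opposite way, so that wild type became the farther one. Maff, with offsets of 0.74 and −0.79, did so without Sox4cKO replicate 2 or without either Sox11cKO array. Atf3 did so without Sox11cKO replicate 2, and Nr4a1 and Phlda1 without Sox11cKO replicate 1. Dusp1, the classical early phosphatase, was at 0.56 (adjusted p = 0.347), and Errfi1, which restrains EGFR, at −0.22 (adjusted p = 0.886). Of 17 other ETS family genes none passed in any genotype by limma, and their dcKO fold changes ranged from −0.54 to 0.11 on the log2 scale, a median of −0.24. The PEA3 relative Etv1 was at background in every channel. No list had a gene past the adjusted p in Sox11cKO, and in Sox4cKO Vim was the 1 such gene over all lists.

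**Figure D4:**
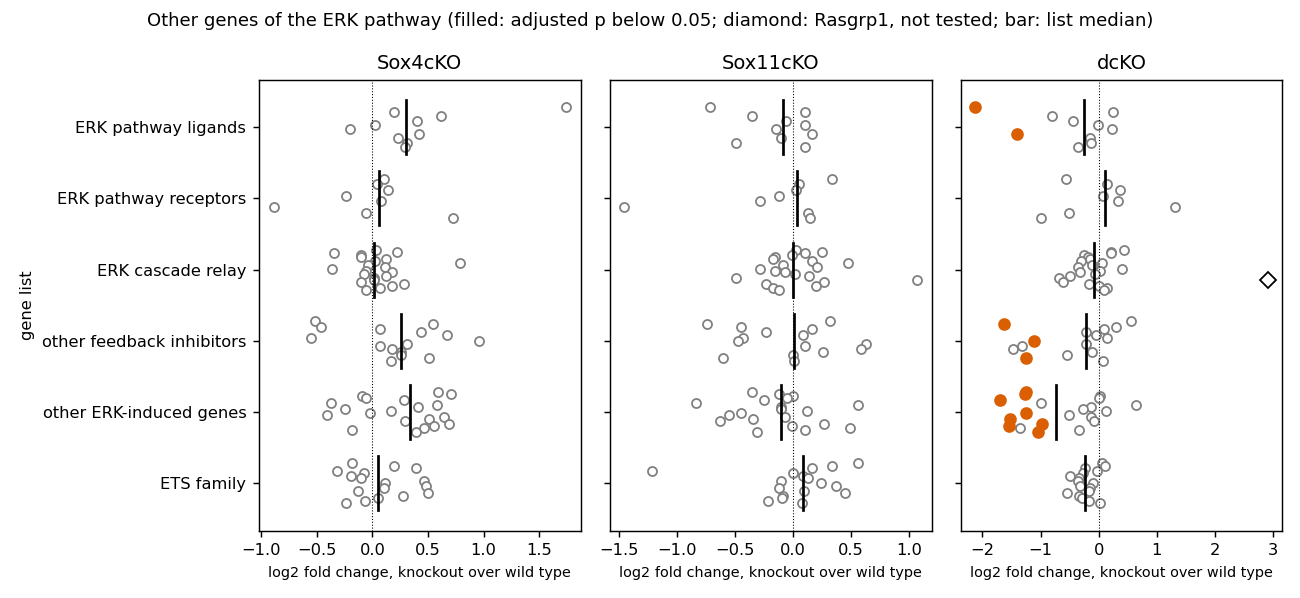
Log2 fold change, knockout over wild type (horizontal axis), of each gene of 6 lists of the ERK pathway in the 3 genotypes; filled points have an adjusted p below 0.05, the open diamond is Rasgrp1 in dcKO, which is described with no test, and the vertical bar is the list's median. In dcKO the filled points were 2 ligands, 3 feedback inhibitors and 8 ERK-induced genes, all to the left of 0, and no point was filled in the single knockouts.

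RefSeq lists a start with its upstream bases for Etv5, Dusp6, Dusp5, Spred1 and Spry2 on build GRCm38.p6, and has no entry in the table used for Etv4, Dusp4, Fosl1, Egr1 and Spry4. The 250 bases before the start of the 3 listed genes that fell in dcKO are shown 5′ to 3′ on the gene's strand, since the RNA of these genes was lower in dcKO. Capitals mark matches, on either strand, to the SOX core ACAAAG, the ETS core CGGAAG, the AP-1 site TGANTCA or the CArG box, the site of serum response factor. No 2 of these motifs overlapped in them.
Etv5, chr16:22439571-22439820, minus strand: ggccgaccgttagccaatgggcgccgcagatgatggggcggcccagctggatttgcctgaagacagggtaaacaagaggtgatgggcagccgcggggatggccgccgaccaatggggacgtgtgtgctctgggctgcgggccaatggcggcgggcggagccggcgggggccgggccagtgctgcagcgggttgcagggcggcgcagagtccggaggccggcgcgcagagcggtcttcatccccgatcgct
Dusp6, chr10:99262981-99263230, plus strand: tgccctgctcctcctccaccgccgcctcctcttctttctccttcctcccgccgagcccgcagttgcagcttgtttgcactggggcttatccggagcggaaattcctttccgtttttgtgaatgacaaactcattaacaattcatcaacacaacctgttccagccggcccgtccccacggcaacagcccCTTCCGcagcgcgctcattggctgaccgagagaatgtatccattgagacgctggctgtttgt
Dusp5, chr19:53528895-53529144, plus strand: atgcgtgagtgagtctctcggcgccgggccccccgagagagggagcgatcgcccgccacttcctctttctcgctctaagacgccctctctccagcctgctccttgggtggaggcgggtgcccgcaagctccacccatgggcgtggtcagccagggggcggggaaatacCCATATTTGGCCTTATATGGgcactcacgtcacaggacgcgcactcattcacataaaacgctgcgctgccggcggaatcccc
The Etv5 stretch held none of the 4 motifs, nor did that of its second listed start. The Dusp6 stretch held 1 ETS core, which began 62 bases before the start, and the Dusp5 stretch held 2 CArG boxes side by side, which began 82 and 72 bases before it. Of 32851 windows of this length, 13.6% held the ETS core, 1.47% a CArG box, 16.5% the SOX core and 6.75% the AP-1 site. The 3 stretches were 71.2%, 56.4% and 64% G and C, against a median of 52.4% over all windows. A match is a description of the letters and not a bound site. Only these patterns were searched, CGGAAG for ETS factors among them. Other forms of a site went unmarked, so a stretch without a match may still hold one.

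Over the 6 arrays, the turned log2 ratios with the dye effect removed were compared between Etv4 and 10682 other genes above background in wild type on every array. The 5 with the highest Pearson r were Nqo2 (0.9996), Sh2d5 (0.9994), Mtx3 (0.9972), Noc3l (0.9969) and Trim27 (0.9964), and the 3 with the lowest were Borcs6 (−0.9988), Klk8 (−0.9982) and Pfdn1 (−0.9978). Etv5 ranked 892 with r = 0.9022, Fosl1 939 with 0.8977 and Dusp6 1421 with 0.8503, then Spred1 with 0.7771, Egr1 with 0.7118 and Dusp4 with 0.5404. Since the dcKO arrays of Etv4 stood apart from the other 4, r mostly measured whether a gene also stood apart there and by which dcKO array more, and 917 genes had an r above 0.9. The highest-ranked genes changed by as little as −0.30 in dcKO.

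How far the 4 drops depended on the processing is shown by their values under each setting. The sign was the same in every fit. Etv5 passed the adjusted p in 12 of 15 other fits, Dusp6 in 13, Fosl1 in 12 and Dusp5 in 7. With an offset of 50 Etv5 was at −2.51 (adjusted p = 0.0505). With the scanner's own processed signals the values were −2.96, −2.23, −1.80 and −1.59 and none passed (adjusted p = 0.194, 0.186, 0.172 and 0.258), where no probe of the array was called in dcKO.

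**Figure D5:**
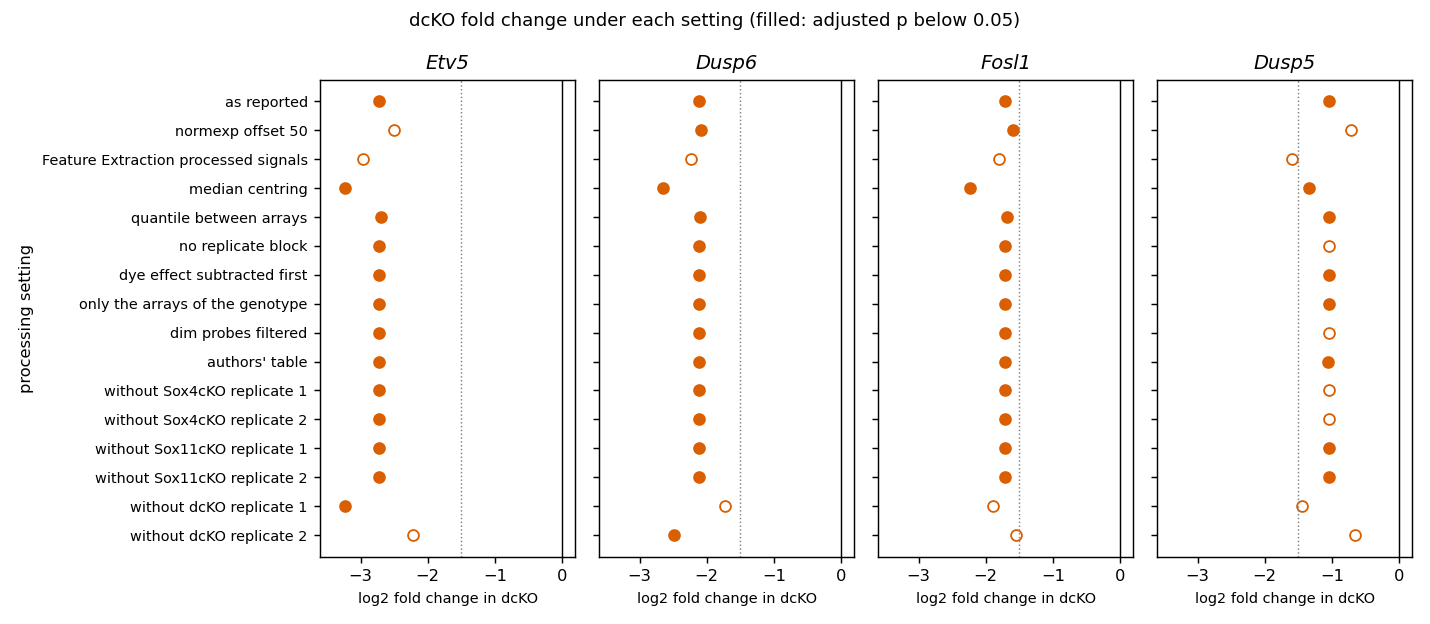
Log2 fold change in dcKO (horizontal axis; dotted line at −1.5) of the 4 members that fell, as reported and under each of 15 other processing settings (vertical axis); filled points have an adjusted p below 0.05. Etv5 ranged from −3.23 to −2.22, Dusp6 from −2.65 to −1.73, Fosl1 from −2.24 to −1.55 and Dusp5 from −1.59 to −0.66.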

How the data were processed

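RNA of 6 pairs of knockout and wild-type keratinocyte cultures had been hybridized to Agilent Mouse G3 8x60K arrays. The files deposited by the authors hold the intensity of each spot in both channels, read with Agilent Feature Extraction 11.0.1.1, and a table of log2 ratios that the authors had made with limma (normexp, offset 16, loess, dye effect removed by ComBat). Here median spot intensities were corrected by normexp with an offset of 16 and normalized by loess in limma 3.58.1 (R 4.3.3), control and outlier spots were left out (194 to 288 outlier spots per array), and spots of a probe were averaged. Ratios were turned as knockout over wild type and fitted over all 6 arrays with an effect per genotype and a dye term (2 residual and 5.36 prior degrees of freedom). The moderated, two-sided test of limma with Benjamini-Hochberg adjustment ran over all 55681 probes. Errors are standard errors of this fit with n = 2 arrays per genotype, a number that limits the precision. The replicates are labelled as biological. Array design names were updated through RefSeq accessions (28331 of 29786 probes with one matched). A gene is given by its brightest probe.

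Replicate numbers and dyes coincide, and deviations of same-numbered arrays correlated at 0.316, 0.244 and 0.125, so the dye term stands as the replicate block. Channel levels were scaled across arrays by Aquantile. A lower bound on a fold sets the bright channel against the dimmest signal above background. The authors' table ran in the same direction on all 6 arrays (r = 0.982 to 0.992 with the ratios above); its centring is near 0 and its scale log2. Members and lists were chosen with earlier results of these data known. Named list genes are those with an adjusted p below 0.05 in any genotype; the others named were picked after their values were seen. The fit was tested on simulated data.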

Additional observations from a re-analysis of the deposited data

Results flagged for a closer look

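Differences between genotypes that passed the adjusted p were set aside for a second look. Between dcKO and Sox4cKO the log2 fold change differed by −4.05 for Etv5, −2.96 for Fosl1, −2.14 for Dusp6 and −1.76 for Dusp5, and each gene was lower in dcKO than in Sox4cKO on both arrays. Between dcKO and Sox11cKO it differed by −1.5 for Fosl1. Below the sum of both single knockouts lay Etv5, by −3.24, and Fosl1, by −2.74. The Etv5 and Fosl1 differences hold a Sox4cKO value above wild type as well as a dcKO value below it. For Fosl1 and Dusp5 the wild-type channels of the dcKO arrays averaged 1.73 and 1.20 above the mean of the other 4 wild-type channels, of which 1 for Fosl1, on Sox11cKO replicate 1, was at 9.84 against 9.81 and 9.90 on the dcKO arrays, and the part of this in the differences was not tested.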

How the results depend on the processing

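Of 674 values of single members under 16 alternatives, 531 stayed with the reported value, 70 lost and 26 gained significance and 47 moved by more than their spread; 15 values near 0, none past the adjusted p, changed sign. The count called in dcKO (3 of 9) was 0 with processed signals (7 at an unadjusted p below 0.05 by limma) and 1 to 3 when 1 array was left out. By the adjusted p alone (4 of 9) it was 0 with processed signals, 2 with an offset of 50, 1 to 6 when 1 array was left out and 7 with median centring, which moved the median of probes above background in wild type to −0.405 and called 9.06% of all probes lower. The count against Sox4cKO (4) was 0 with an offset of 50, 0 with processed signals, 2 with no replicate block (no dye term) and 0 to 4 when 1 array was left out. That against Sox11cKO (0) was 3 with median centring, 2 with quantile scaling, 2 in the authors' table and 0 to 2 when 1 array was left out. The count below additivity (2) was 0 with an offset of 50, 0 with processed signals, 0 with no replicate block, 1 with dim probes filtered and 0 to 3 when 1 array was left out. The counts in Sox4cKO and Sox11cKO stayed 0 in every fit run. The causes were not tested, beyond fewer arrays in the fit. With 1 array of a genotype left, that array was assumed to vary like the others. Fits of a genotype's own arrays gave no contrasts between genotypes. The mean spot signal was not run, since the files used here hold medians.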
